A study of Drosophila melanogaster with 30 samples.

Results

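The m6A-IP/input of basal *Drosophila* heads that upregulate *dTrmt10A* was compared with that of control heads. The comparison used every IP and input library of these genotypes from flies that were not heat shocked, which are 12 of the 30 libraries of the series and come from 6 RNA samples, 3 per genotype. Each RNA sample gave an input library and an IP library, so the change of a gene is the log2 IP/input of UAS-*dTrmt10A* heads minus the log2 IP/input of control heads, with IP and input paired within the RNA sample. UAS-*dTrmt10A* flies were *da*Gal4 > UAS-*dTrmt10A*, in which the ubiquitous daughterless driver expresses a FLAG-HA tagged open reading frame of *CG14618* from a single landing site. Control flies were *da*Gal4 > KK control, so they carry the same driver with a control RNAi line in place of the transgene. All flies were males collected 1 to 2 days after eclosion, and each RNA sample pooled 200 heads. Genotype, transgene insertion and strain background differ together between these groups and cannot be told apart. The labels number the replicates of each genotype but do not say which were collected together, so the p-values measure the spread between these RNA samples only.

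UAS-*dTrmt10A* libraries held 20110909 to 51006574 input counts and 18314287 to 30005844 IP counts, against 22038183 to 25208108 input counts and 16938518 to 18504820 IP counts in control libraries. UAS-*dTrmt10A* replicate 3 was the deepest RNA sample, with 51006574 input and 30005844 IP counts. No 2 libraries held identical values. The antibody is given as Synaptic Systems for all replicates in the labels, whereas the study's methods name a second supplier as well, and which antibody was used in which library was not tested.

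N6-methyladenosine is placed on nascent mRNA by a multi-subunit methyltransferase built around Mettl3 and Mettl14, and it is read by YTH-domain proteins that act on splicing, decay and translation. In *Drosophila* the mark is abundant in the nervous system and lies mostly in 5′UTRs, in contrast to the 3′UTR pattern of mammals. In an m6A-IP, fragments of polyA+ RNA are captured with an antibody, so a gene with log2 IP/input above 0 gave a larger share of the captured RNA than of the starting RNA. The counts are per gene, so a change on a short modified stretch of a long transcript is diluted, and its position along the transcript is not resolved.

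*CG14618*, which encodes dTrmt10A (FBgn0031189, dm6 chrX:22473698-22474998), was checked first. Its input level was 156, 175 and 203 CPM (counts scaled to the TMM-adjusted library size) in UAS-*dTrmt10A* heads, against 8.82, 7.98 and 9.22 CPM in control heads. All UAS-*dTrmt10A* samples lay above all control samples, and the log2 difference was 4.35 ± 0.117 (SE, n = 3 each, adjusted p = 2.68e-07, edgeR's quasi-likelihood test). The transgene carries the same open reading frame, so endogenous and transgenic RNA cannot be told apart by these counts. The log2 IP/input of *CG14618* was 0.14, 0.04 and 0.04 in UAS-*dTrmt10A* heads, against −0.08, 0.25 and 0.03 in control heads, which overlapped (change 0.00, adjusted p = 0.998).

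Across 10368 genes tested, 674 had lower IP/input in UAS-*dTrmt10A* heads (6.5% of genes tested) and 152 had higher IP/input (1.47%) at an adjusted p under 0.05. The changes were small. The 674 lower genes had a median log2 change of −0.42 (quartiles −0.54 and −0.34), the 152 higher genes one of 0.35 (quartiles 0.30 and 0.41), and all genes tested one of 0.01. Per RNA sample, the median log2 IP/input over the lower genes was 0.52, 0.65 and 0.56 in UAS-*dTrmt10A* heads, against 0.89, 1.11 and 1.03 in control heads. Over the higher genes it was −0.27, −0.37 and −0.32 in UAS-*dTrmt10A* heads, against −0.55, −0.79 and −0.73 in control heads. The lower genes were thus those that the IP captured well, and the higher genes those that it captured poorly. Of the 674 lower genes, 533 passed the test for IP above input in UAS-*dTrmt10A* heads and 616 in control heads. The RNA itself moved little in them, with a median input change of −0.02 in the lower and 0.05 in the higher genes. Of the 673 lower genes tested for input RNA, 12 were higher and 2 were lower in input. Over all genes tested for input RNA, 1.8% were higher and 1.01% lower.

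The counts moved with the model and with the scaling. Without the term for the RNA sample, and likewise with limma on the 6 log2 IP/input values, which keeps IP and input paired, 0 genes passed in either direction, while an unadjusted p under 0.05 was reached by 875 lower and 374 higher genes without the term and by 1234 lower and 589 higher genes with limma. The 3 UAS-*dTrmt10A* and 3 control ratios did not overlap in 664 of the 674 lower and 135 of the 152 higher genes, where 15.1% of all genes tested lay wholly lower and 10.1% wholly higher. With total library size in place of TMM scaling, the median of all genes was 0.14, and 324 genes were lower and 862 higher. All 324 were among the 674, all 674 still had a negative change and all 152 a positive one. These directions were bound to hold and are no test of them. The change of scaling shifts all genes up nearly alike, as the median moved from 0.01 to 0.14. The smallest fall that passed was −0.24. Leaving out UAS-*dTrmt10A* replicate 1, 2 or 3 gave 331, 716 and 335 lower genes and 24, 114 and 11 higher genes, and leaving out control replicate 1, 2 or 3 gave 1170, 448 and 378 lower genes and 651, 44 and 19 higher genes. 264 of the lower genes passed in all 6 of these fits, against 5 of the higher genes.

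**Figure D1:**
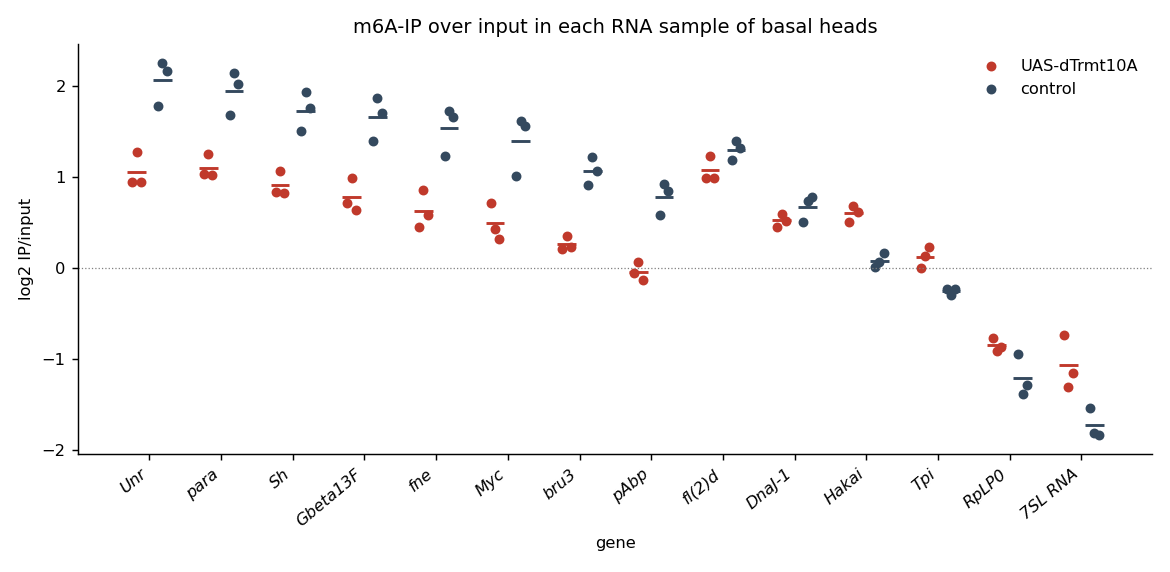
Log2 IP/input (y axis) of 14 genes in each RNA sample of basal heads, UAS-*dTrmt10A* in red and control in dark blue, with a line at each mean (n = 3 each). *Unr* to *pAbp* lie lower in every UAS-*dTrmt10A* sample, *fl(2)d* and *DnaJ-1* did not pass the test, and *Hakai* to 7SL RNA lie higher in every UAS-*dTrmt10A* sample.

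The change followed the level of IP/input. Genes were ranked by their log2 IP/input in *dTrmt10A* RNAi heads, which enter neither side of the comparison, and split into 10 bins. The median change was 0.16 in the lowest bin and −0.25 in the highest, with a steady decline between them. The highest bin held 334 lower and 2 higher genes, 32.2% of its members being lower, and the lowest bin held 10 lower and 36 higher genes. The slope of log2 IP/input on this level was 0.66, 0.79 and 0.74 in UAS-*dTrmt10A* samples, against 0.76, 0.97 and 0.88 in control samples. Control replicate 1 lay among the UAS-*dTrmt10A* samples, and the difference gave an exact permutation p of 0.2 (two-sided, n = 3 each, the smallest possible being 0.1). The SD of log2 IP/input over genes was 0.68, 0.77 and 0.71 in UAS-*dTrmt10A* samples, against 0.74, 0.90 and 0.82 in control samples (exact permutation p = 0.2, n = 3 each). With this level trend removed, an alternative chosen after seeing the data, 593 genes were lower and 480 higher, 427 and 116 of them among those called before. The highest bin then held 166 lower and 148 higher genes. The part of this level trend in the calls was not tested further.

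**Figure D2:**
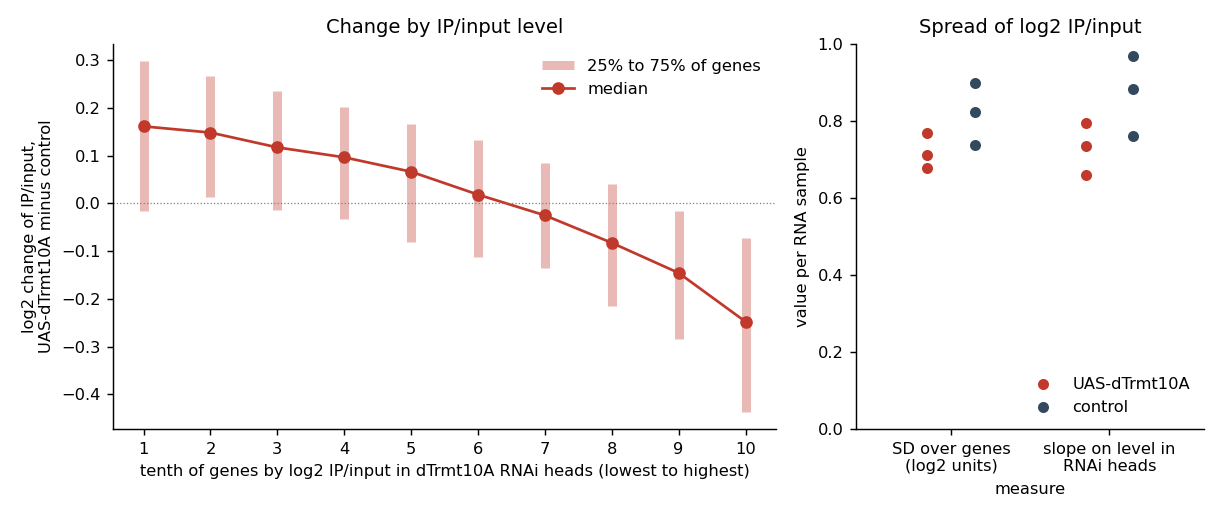
Left, log2 change of IP/input (y axis, UAS-*dTrmt10A* minus control, median with the 25% to 75% range) in 10 bins of genes by log2 IP/input in *dTrmt10A* RNAi heads; the median is 0.16 in the lowest bin and −0.25 in the highest. Right, the SD over genes and the slope on the RNAi level of log2 IP/input for each RNA sample, UAS-*dTrmt10A* in red and control in dark blue, which overlap at control replicate 1.

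Among the 10 largest falls was that of *Unr*, which encodes a cold-shock-domain RNA-binding protein of dosage compensation and translation. It had log2 IP/input 0.94, 1.28 and 0.94 in UAS-*dTrmt10A* heads, against 1.78, 2.26 and 2.16 in control heads (change −1.01 ± 0.108 SE, adjusted p = 2.34e-05). *Myc*, the growth-promoting transcription factor, had 0.72, 0.43 and 0.32 in UAS-*dTrmt10A* heads, against 1.01, 1.61 and 1.56 in control heads (change −0.95 ± 0.171, adjusted p = 0.00109). *Gbeta13F*, a G protein beta subunit, had 0.72, 0.99 and 0.64 in UAS-*dTrmt10A* heads, against 1.40, 1.87 and 1.70 in control heads (change −0.88 ± 0.104, adjusted p = 3.58e-05). The genotypes do not overlap in any of the 10 largest falls because the naming rule required it. Control replicate 1 was the lowest control sample in *Unr*, *Myc* and *Gbeta13F*. *Cam*, calmodulin, fell by 0.88 on the log2 scale (0.78, 0.91 and 0.65 in UAS-*dTrmt10A* heads, against 1.38, 1.86 and 1.73 in control heads). *CG6503* differed from these in level, with −0.56, −0.46 and −0.91 in UAS-*dTrmt10A* heads, against 0.03, 0.73 and 0.53 in control heads, and its change of −1.07 was the largest of those named. The rest of the 10 largest falls were *fne* (−0.92), the noncoding RNA *lncRNA:CR45102* (−0.90), *Unc-115b* (−0.89), *mt:ATPase8* (−0.89) and *CG14301* (−0.85). *mt:ATPase8* no longer passed without UAS-*dTrmt10A* replicate 3 (adjusted p = 0.102).

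The 3′UTRs of several of these genes are shown because the lower genes as a group had long and DRACH-dense 3′UTRs, as described further on. DRACH is the consensus around m6A, read here as A, G or T, then A or G, then A, then C, then A, C or T. For each gene the 30-base stretch of the annotated 3′UTR with most DRACH matches is printed 5′ to 3′ on the transcript strand, the only strand searched, with the bases of matches in capitals and overlapping matches counted separately (RefSeq genome sequence and Ensembl annotation, dm6). The stretches lie at chr3L:8433178-8433207 on the minus strand (*Unr*), chrX:12945800-12945829 on the plus strand (*fne*), chrX:15862830-15862859 on the plus strand (*Gbeta13F*), chrX:16456862-16456891 on the minus strand (*para*), chrX:17924664-17924693 on the minus strand (*Sh*) and chr3L:13537535-13537564 on the minus strand (*bru3*). For contrast, those of higher genes lie at chr3R:30133199-30133228 on the minus strand (*Tpi*) chr2L:1724957-1724986 on the minus strand (*Eno*) and chr3L:22077435-22077464 on the plus strand (*RpLP0*). A lower gene with fewer matches, *nrv3*, is shown at chr2L:21390252-21390281 on the plus strand.
Unr: atAAACAaaaaaaAAACAAACAagcAAACT
fne: aaaaaaAAACAAACAAACAacAAACAAACA
Gbeta13F: agAAACAgAAACAAAACAAAACAaaAAACA
para: AGACAcaatacAGACAcAGACAGACAAACT
Sh: cAAACAAACAagaGAACAAACAAACAAACA
bru3: tGAACAcaAAACTtgAGACAaAAACTGACT
nrv3: atatagaaaaaaaAAACTGACAacaAAACC
Tpi: aagcatcagatcgctttcggccagcGAACT
Eno: ctacacAAACAccaaatccacAAACAGACA
RpLP0: gacGGACCcaatggcgagttgcattAAACA
*Sh* holds 6 matches, *fne*, *Gbeta13F*, *para* and *bru3* 5 each, *Unr* 4, *nrv3* and *Eno* 3 each, *RpLP0* 2 and *Tpi* 1, so lower and higher genes overlap in this count. Of 9531 tested genes with such a stretch, 35.4% have at least 1 with 3 or more matches, 10.6% at least 1 with 4 or more matches and 2.01% at least 1 with 5 or more, whereas 41.3% of all 30-base stretches of their 3′UTRs hold at least 1 match. A long 3′UTR offers more stretches to choose from, and a match is a description of the letters, not a mapped m6A site.

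RNA-binding proteins had the largest share of lower members among the functional lists. Of 34 tested, 23 were lower and 0 higher, with a median change of −0.36, against 0.01 over all genes tested. Counts of list members, here and below, stand against 6.5% lower and 1.47% higher over all genes tested. The count was 15 with total library size, 23 with the level trend removed, and 15 to 26 with 1 RNA sample left out. The summed input level of the list was 6467 to 6639 CPM in UAS-*dTrmt10A* heads, against 6693 to 7147 CPM in control heads. Summed list levels, here and below, are CPM of total counts without TMM factors, and on this scale the genotypes did not overlap. The TMM factors of the input libraries were 0.999, 1.02 and 1.02 in UAS-*dTrmt10A* heads, against 1.05, 1.04 and 1.03 in control heads. Scaling by them brings these levels closer. Control replicate 1 (6700 CPM, factor 1.05) then falls below all UAS-*dTrmt10A* samples. Control replicate 2 (7147 CPM, factor 1.04) stays above them, so the genotypes overlap on that scale. *fne*, found in neurons and a relative of *elav*, had log2 IP/input 0.44, 0.85 and 0.58 in UAS-*dTrmt10A* heads, against 1.23, 1.73 and 1.66 in control heads (change −0.92 ± 0.113, adjusted p = 3.83e-05). *bru3*, a CELF-family protein, had 0.21, 0.35 and 0.23 in UAS-*dTrmt10A* heads, against 0.91, 1.21 and 1.06 in control heads (change −0.80, adjusted p = 2.34e-05). *pAbp*, which encodes the cytoplasmic poly(A)-binding protein, had −0.06, 0.06 and −0.14 in UAS-*dTrmt10A* heads, against 0.58, 0.92 and 0.84 in control heads (change −0.83, adjusted p = 2.34e-05). The genotypes were separate in *bru3* and *pAbp*, and in *fne* by the naming rule. The IP/input of *pAbp* in UAS-*dTrmt10A* heads lay near 0, where IP and input shares are equal. *ps*, the fly Nova protein of splicing, fell by 0.60 on the log2 scale. Among 25 deadenylation and decay genes 3 were lower (12%, against 6.5% of all genes tested), and 1 to 4 with 1 RNA sample left out. They were *Tob* (−0.71), a partner of the deadenylase, *Edc3* (−0.38), an enhancer of decapping, and *DCP2* (−0.40), the decapping enzyme. *DCP2* was lost without UAS-*dTrmt10A* replicate 1 (adjusted p = 0.0804) or 3 (adjusted p = 0.0647). *Edc3* was lost without UAS-*dTrmt10A* replicate 1 or 3 or control replicate 3, and both were lost with total library size. In the 42 translation factors 5 were lower and 1 higher, at a median of 0.005. These are 11.9% and 2.38%, against 6.5% and 1.47% of all genes tested. The counts were 3 lower and 5 higher with total library size, and 2 to 8 lower and 0 to 6 higher with 1 RNA sample left out. *eIF4EHP* (−0.64), a cap-binding repressor of translation, and *eIF4B* (−0.41) were among the lower ones.

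Of 19 potassium channel genes 6 were lower (3 with total library size, 3 to 6 with 1 RNA sample left out). Their summed input level was 2225 to 2341 CPM in UAS-*dTrmt10A* heads, against 2475 to 2565 CPM in control heads, without overlap on total counts. The part of this difference in the IP/input changes was not tested. *Sh*, the Shaker channel, had log2 IP/input 0.84, 1.07 and 0.82 in UAS-*dTrmt10A* heads, against 1.51, 1.93 and 1.75 in control heads (change −0.82 ± 0.097, adjusted p = 3.58e-05). *SK*, a calcium-activated channel, had 0.44, 0.61 and 0.53 in UAS-*dTrmt10A* heads, against 1.10, 1.34 and 1.20 in control heads (change −0.69, adjusted p = 3.58e-05). Neither gene overlapped between genotypes. *slo* (−0.38), a calcium- and voltage-gated channel, and *Hk* (−0.35), the Shaker beta subunit, passed with smaller falls, and *Hk* was lost without UAS-*dTrmt10A* replicate 1 (adjusted p = 0.0623), UAS-*dTrmt10A* replicate 3 (0.0906) or control replicate 2 (0.0614). The median over the list was −0.11, which turned to 0.02 with total library size, and relative to the median of all genes it was −0.12 under both scalings.

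Of 16 sodium and calcium channel genes 6 were lower (4 with total library size, 4 to 8 with 1 RNA sample left out). Their summed input level was also lower without overlap on total counts, at 2988 to 3166 CPM in UAS-*dTrmt10A* heads, against 3372 to 3517 CPM in control heads. *para*, the voltage-gated sodium channel of action potentials, had log2 IP/input 1.03, 1.25 and 1.02 in UAS-*dTrmt10A* heads, against 1.68, 2.14 and 2.03 in control heads (change −0.85 ± 0.100, adjusted p = 3.58e-05). The lowest control sample lay well above the highest UAS-*dTrmt10A* sample. The others named by the rule were *CG4587* (−0.60), a predicted calcium channel alpha2-delta subunit, *Teh2* (−0.48), an auxiliary subunit of para, and *cac* (−0.39), the presynaptic calcium channel. Of 4 sodium pump genes, *nrv3* (−0.79), a neuronal beta subunit, and *Atpalpha* (−0.50), the catalytic subunit, were lower, and 2 members of the list passed in each of the 6 fits with 1 RNA sample left out. The summed input level of these 4 was 6134 to 6513 CPM in UAS-*dTrmt10A* heads, against 6687 to 7188 CPM in control heads.

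Receptors and the G proteins behind them followed. Of 10 nicotinic acetylcholine receptor subunits 6 were lower (4 to 6 with 1 RNA sample left out, 5 with total library size), and the list median was −0.39. Their summed input level was 1040 to 1061 CPM in UAS-*dTrmt10A* heads, against 1151 to 1175 CPM in control heads, without overlap on total counts. The members with the smallest p were *nAChRalpha5* (−0.62), *nAChRalpha6* (−0.62), *nAChRalpha7* (−0.59) and *nAChRalpha1* (−0.47), the last of which did not pass without UAS-*dTrmt10A* replicate 3 (adjusted p = 0.0605). Of 16 GABA and glutamate receptor genes 3 were lower (3 to 5 with 1 RNA sample left out; summed input 1227 to 1319 CPM in UAS-*dTrmt10A* heads, against 1401 to 1444 CPM in control heads), with *Rdl*, the GABA-gated chloride channel, at 0.53, 0.83 and 0.62 in UAS-*dTrmt10A* heads, against 1.15, 1.50 and 1.42 in control heads (change −0.70, adjusted p = 8.87e-05). Of 17 monoamine receptors 4 were lower (2 to 8 with 1 RNA sample left out), namely *5-HT7* (−0.67) and *5-HT1A* (−0.32), serotonin receptors, *Octbeta2R* (−0.54), an octopamine receptor, and *DopEcR* (−0.47), which binds dopamine and ecdysteroids. *5-HT7* did not pass without UAS-*dTrmt10A* replicate 1 (adjusted p = 0.0538), and *5-HT1A* passed in only 1 of the 6 fits with 1 RNA sample left out. Of 27 genes of G proteins and cAMP signalling 14 were lower and 0 higher, at a median of −0.28 (8 with total library size, 7 to 17 with 1 RNA sample left out). Beside *Gbeta13F* these included *CrebA* (−0.76), a transcription factor of the secretory pathway, *Ggamma30A* (−0.56), a G protein gamma subunit, and *Pka-R2* (−0.56), a regulatory subunit of protein kinase A.

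At the synapse, 10 of 30 genes of vesicle release were lower (5 with total library size, 6 to 14 with 1 RNA sample left out). Their summed input level was 11017 to 11910 CPM in UAS-*dTrmt10A* heads, against 12225 to 12724 CPM in control heads. On total counts it was also lower without overlap for axon guidance (2484 to 2722 CPM against 2879 to 3082 CPM), for neural adhesion (4915 to 5153 CPM against 5331 to 5730 CPM) and for dpr and DIP receptors (1059 to 1102 CPM against 1111 to 1175 CPM), UAS-*dTrmt10A* against control in each. With TMM factors the dpr and DIP receptors overlap, as control replicate 3 (1111 CPM, factor 1.03) falls below UAS-*dTrmt10A* replicate 2 (1102 CPM, factor 1.02). Overlap with TMM factors was not tested for the other lists. The lower vesicle genes included *Frq1* (−0.70), a calcium sensor, *Syt7* (−0.56) and *Syt1* (−0.48), synaptotagmins, and *Syx1A* (−0.47), the plasma membrane syntaxin. *Syx1A* kept one of the highest ratios among the named genes, 1.74, 1.97 and 1.73 in UAS-*dTrmt10A* heads, against 2.14, 2.43 and 2.28 in control heads. Of 35 axon guidance genes 8 were lower (5 with total library size, 5 to 14 with 1 RNA sample left out), led by *Lar*, a receptor tyrosine phosphatase, at 0.28, 0.83 and 0.70 in UAS-*dTrmt10A* heads, against 1.41, 1.43 and 1.45 in control heads (change −0.81, adjusted p = 0.000186). The control samples of *Lar* lay close together, and UAS-*dTrmt10A* replicate 1 was the lowest sample. *Ptp99A* (−0.55), another phosphatase, and *Sema1a* (−0.51), a semaphorin, were lower as well. Of 35 neural adhesion genes 12 were lower (3 with total library size, 4 to 17 with 1 RNA sample left out), with *kek1* (−0.60), a leucine-rich repeat protein, *Ten-a* (−0.50), a teneurin, and *CadN* (−0.45), N-cadherin. *Nrg*, neuroglian, changed less (−0.34 ± 0.0776, adjusted p = 0.00674) and did not pass with total library size (adjusted p = 0.0572) or without UAS-*dTrmt10A* replicate 3 (adjusted p = 0.0534). Of 32 dpr and DIP receptors, cell-surface proteins of synaptic partner matching, 10 were lower, with *dpr13* at −0.62 (3 with total library size, 2 to 15 with 1 RNA sample left out).

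**Figure D3:**
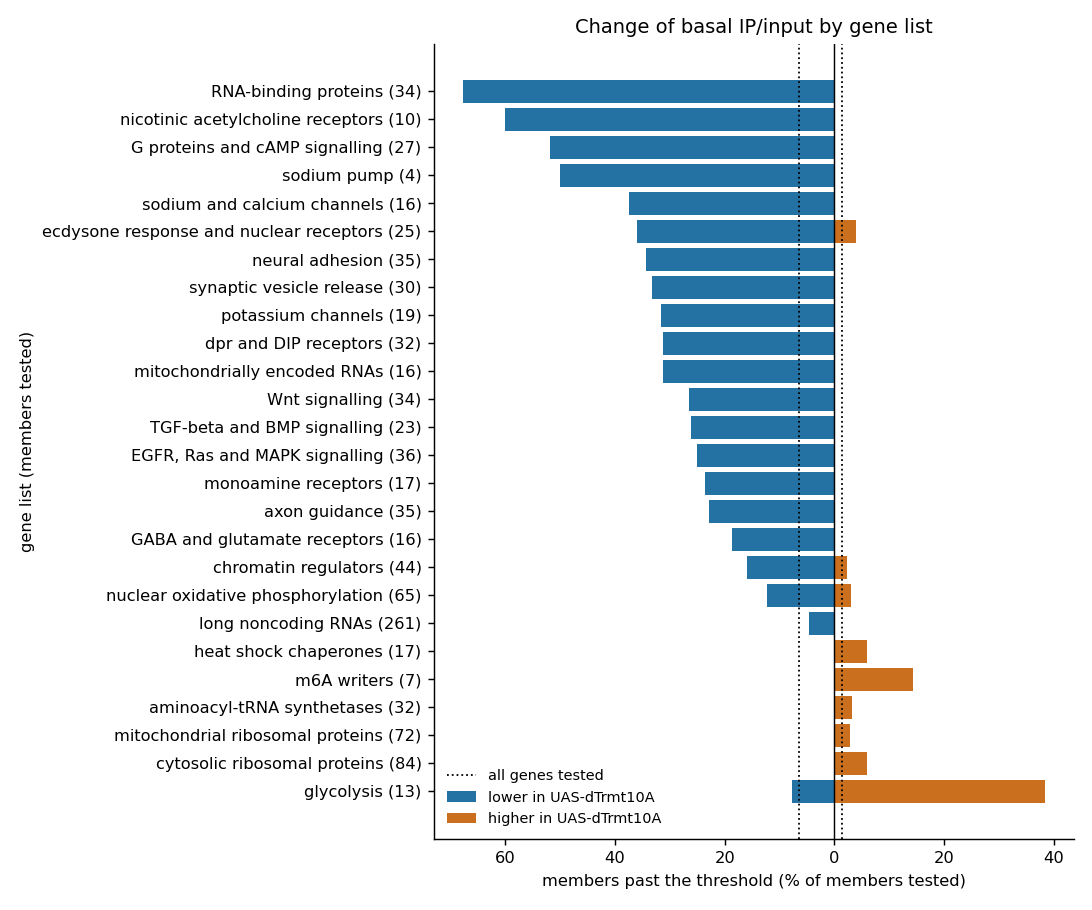
Share of tested members of each gene list (x axis, %; number tested in parentheses) that passed the test, lower in UAS-*dTrmt10A* heads to the left in blue and higher to the right in orange; dotted lines mark all genes tested, 6.5% lower and 1.47% higher. RNA-binding proteins reach furthest to the left, with 23 of 34, and glycolysis furthest to the right, with 5 of 13.

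Signalling and transcription factor genes had smaller shares. Of 36 genes of EGFR, Ras and MAPK signalling 9 were lower (6 with total library size, 5 to 15 with 1 RNA sample left out), with *puc* (−0.62), the JNK phosphatase, and *aop* (−0.53), an ETS repressor. Of 34 Wnt genes 9 were lower (5 to 13 with 1 RNA sample left out). *CkIalpha*, casein kinase 1 alpha, led them with 1.01, 1.03 and 0.80 in UAS-*dTrmt10A* heads, against 1.50, 1.95 and 1.80 in control heads (change −0.80, adjusted p = 3.83e-05), followed by *Rho1* (−0.69), a small GTPase, *CkIIbeta* (−0.68), a casein kinase 2 subunit, and *gish* (−0.49), a casein kinase 1 gamma. Of 23 TGF-beta and BMP genes 6 were lower, *sog* (−0.49), a BMP antagonist, among them, and the count was 1 with total library size and 1 to 8 with 1 RNA sample left out. Of 25 genes of the ecdysone response and nuclear receptors 9 were lower and 1 higher (4 and 2 with total library size, 3 to 13 lower with 1 RNA sample left out). They included *Hr3* (−0.76), which did not pass without UAS-*dTrmt10A* replicate 3 (adjusted p = 0.0574), *knrl* (−0.65), *Eip93F* (−0.55) and *Eip63E* (−0.42), a cyclin-dependent kinase. Of 39 homeobox and patterning factors 6 were lower (15.4%, against 6.5% of all genes tested). The count was 4 with total library size and 3 to 11 with 1 RNA sample left out. Among the 6 were *hth* (−0.73), an eye and antenna patterning factor, and *oc* (−0.67), a head-patterning factor. Of 44 chromatin regulators 7 were lower and 1 higher (15.9% and 2.27%, against 6.5% and 1.47% of all genes tested), at a median of −0.01. With total library size 4 were lower and 4 higher, at a median of 0.11.

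The m6A machinery itself was tested in the same way. Of 7 writer genes 1 was higher and 0 lower (14.3% higher, against 1.47% of all genes tested). *Hakai*, a ubiquitin ligase of the writer complex, had log2 IP/input 0.51, 0.68 and 0.62 in UAS-*dTrmt10A* heads, against 0.00, 0.06 and 0.16 in control heads (change 0.52 ± 0.123, adjusted p = 0.00951). The genotypes were separate, but the call was lost without UAS-*dTrmt10A* replicate 3 (adjusted p = 0.0744). *fl(2)d*, the fly WTAP, had 0.99, 1.24 and 0.99 in UAS-*dTrmt10A* heads, against 1.18, 1.40 and 1.31 in control heads, which overlapped (change −0.23, adjusted p = 0.111). The catalytic pair, chosen for naming after the values were seen, had changes of 0.43 (*Mettl3*, adjusted p = 0.184) and 0.66 (*Mettl14*, adjusted p = 0.0724). Of the 3 readers none passed. *Ythdc1*, the nuclear reader, had 1.36, 1.65 and 1.44 in UAS-*dTrmt10A* heads, against 1.57, 1.85 and 1.76 in control heads (change −0.24, adjusted p = 0.0919), and the change of *Ythdf*, the cytoplasmic reader, was −0.14. The changes of *fl(2)d* and *Ythdc1* became 0.02 and 0.07 with the level trend removed.

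Of 17 heat shock chaperone genes tested in these unstressed heads, 1 was higher and 0 lower (5.88% higher, against 1.47% of all genes tested). *DnaJ-1*, the Hsp40 co-chaperone, had log2 IP/input 0.45, 0.60 and 0.52 in UAS-*dTrmt10A* heads, against 0.50, 0.74 and 0.78 in control heads, which overlapped (change −0.15, adjusted p = 0.302). The inducible *Hsp70* genes are near-identical copies, and how reads were shared among them is not given in the sources used here, so the value of each copy is uncertain. *Hsp70Bb* was higher, with 0.32, 0.42 and 0.16 in UAS-*dTrmt10A* heads, against −0.56, −0.24 and −0.23 in control heads (change 0.67 ± 0.132, adjusted p = 0.0025). The other copies did not pass and pointed both ways, with *Hsp70Aa* at 0.16, *Hsp70Ab* at −0.52, *Hsp70Ba* at −0.03, *Hsp70Bbb* at 0.20 and *Hsp70Bc* at 0.24. *Hsp70Ba* turned to 0.10 with total library size.

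Genes with higher IP/input were fewer, and most of them were lost in several fits with 1 RNA sample left out. The 5 that passed in all 6 were *Hsp70Bb*, 7SL RNA and, chosen for naming after their values were seen, *Reg-2* (0.49), *SCOT* (0.44), an enzyme of ketone body use, and *Mthfs* (0.36), an enzyme of folate metabolism. 7SL RNA (*7SLRNA:CR32864*), the RNA of the signal recognition particle, had −0.74, −1.31 and −1.16 in UAS-*dTrmt10A* heads, against −1.54, −1.82 and −1.84 in control heads (change 0.66 ± 0.129, adjusted p = 0.0021). It was depleted by the IP in every sample, and less so in UAS-*dTrmt10A* heads. The naming rule left 133 of the 152 higher genes to name from, and the largest rise among all 152 was 1.33. The rest of the 10 largest rises were *AttC* (0.62), an antimicrobial peptide, *beg* (0.61), *Obp83g* (0.60), an odorant-binding protein, *Yp3* (0.59), a yolk protein, *CG11590* (0.59), *CG11679* (0.59), *CG5335* (0.57) and *CG6650* (0.55). None of these 8 passed without UAS-*dTrmt10A* replicate 3, and without UAS-*dTrmt10A* replicate 1 only *AttC* did. Antimicrobial peptide genes did not share the rise of *AttC*, as 2 of 19 were lower and 1 higher, at a median of 0.05. These are 10.5% and 5.26%, against 6.5% and 1.47% of all genes tested.

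Glycolysis had the largest share of higher members among the functional lists, 5 of 13, with 1 lower, at a median of 0.24. With 1 RNA sample left out, 0 to 8 were higher. *Tpi*, triose phosphate isomerase, had log2 IP/input 0.00, 0.13 and 0.23 in UAS-*dTrmt10A* heads, against −0.24, −0.30 and −0.24 in control heads (change 0.38 ± 0.0783, adjusted p = 0.00348), and it did not pass without UAS-*dTrmt10A* replicate 3 (adjusted p = 0.0746). *Eno*, enolase (0.40), and *Pgi*, phosphoglucose isomerase (0.31), were also higher, each in 2 of the 6 fits with 1 RNA sample left out. *Hex-A*, the hexokinase at the entry of the pathway, went the other way, with 1.00, 1.13 and 0.99 in UAS-*dTrmt10A* heads, against 1.29, 1.61 and 1.46 in control heads (change −0.41, adjusted p = 0.00326). Of 84 cytosolic ribosomal protein genes 5 were higher and 0 lower (5.95% higher, against 1.47% of all genes tested), at a median of 0.11. This count depended most on scaling and on single samples (33 higher with total library size, 0 to 29 with 1 RNA sample left out). *RpLP0* had −0.77, −0.92 and −0.87 in UAS-*dTrmt10A* heads, against −0.94, −1.39 and −1.29 in control heads (change 0.36, adjusted p = 0.0235), and *RpL6* changed by 0.33. Both were lost without UAS-*dTrmt10A* replicate 1 or 3 or without control replicate 2 or 3. Of 72 mitochondrial ribosomal protein genes 2 were higher and of 32 aminoacyl-tRNA synthetases 1 (*AspRS*, 0.38), shares of 2.78% and 3.12% that lie near the 1.47% of all genes tested. Of 27 odorant-binding proteins 3 were higher (11.1%, against 1.47% of all genes tested), namely *Obp83g*, *Obp99c* (0.35) and *Obp56e* (0.30). None of these named genes passed without UAS-*dTrmt10A* replicate 3.

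RNAs encoded in the mitochondrial genome, which are depleted by the IP, were lower in part. They made up 0.390%, 0.363% and 0.334% of IP counts in UAS-*dTrmt10A* heads, against 0.417%, 0.421% and 0.407% in control heads, without overlap (exact permutation p = 0.1, the smallest possible, n = 3 each). In input they made up 15.1%, 14.0% and 14.8% in UAS-*dTrmt10A* heads, against 12.7%, 14.0% and 14.2% in control heads (exact permutation p = 0.3, n = 3 each). Of 16 tested 5 were lower, at a median of −0.28 (2 to 6 with 1 RNA sample left out). With the GC trend removed 1 was lower and the median turned to 0.11. *mt:ATPase6*, a subunit of ATP synthase, had −4.98, −4.68 and −4.86 in UAS-*dTrmt10A* heads, against −4.26, −3.88 and −4.10 in control heads (change −0.76, adjusted p = 6.98e-05). The rRNAs *mt:srRNA* (−0.67) and *mt:lrRNA* (−0.50) were lower too, and *mt:srRNA* did not pass without UAS-*dTrmt10A* replicate 3 (adjusted p = 0.0566). Depleted RNAs therefore did not all move towards 0, as 7SL RNA did. Of 65 nuclear genes of oxidative phosphorylation 8 were lower and 2 higher (12.3% and 3.08%, against 6.5% and 1.47% of all genes tested). The counts were 3 lower and 14 higher with total library size, and 3 to 12 lower and 0 to 12 higher with 1 RNA sample left out. The list median was 0.05, and 25 of the 65 had a negative change. The complex I subunits *ND-MWFE* (−0.65) and *ND-MLRQ* (−0.52) led the lower ones from levels below 0 in UAS-*dTrmt10A* heads. Of 261 long noncoding RNAs 12 were lower and 0 higher, which is 4.60% and below the share over all genes. Their changes still leaned down, with 182 of 261 negative and a median of −0.27, against 0.01 over all genes tested.

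Lower genes were long, expressed genes with long 3′UTRs. Among protein-coding genes, the 652 lower ones had a median annotated 3′UTR of 1707 bases, the 148 higher ones 167.5 bases and the 8930 that did not pass 285 bases. The 5′UTR was 810 bases in the lower, 163 in the higher and 190 in the other genes, whereas the coding sequence differed less, at 1741.5 bases in the lower, 1258.5 in the higher and 1408.5 in the others. 3′UTR DRACH density was 22.5 matches per kb in the lower genes, 17.1 in the higher and 18.4 in the others, and exonic GC content was 44.2% in the lower, 53.2% in the higher and 49.4% in the others. The median level, as log2 CPM over the 12 libraries, was 6.79 in the lower, 6.46 in the higher and 4.53 in the others, so genes that passed in either direction were more deeply counted. The X chromosome held 25.5% of the lower, 18.9% of the higher and 15.9% of the other genes. In 5 bins of rising 3′UTR length, 19, 28, 52, 107 and 442 genes were lower and 41, 42, 35, 20 and 10 were higher, so 22.8% of the bin with the longest 3′UTRs (980 bases or more) was lower. Within the bin of highest IP/input in RNAi heads, the 326 lower protein-coding genes and the 622 that did not pass had like levels (1.47 and 1.42) but a median 3′UTR of 1804 and 454 bases and a log2 CPM of 6.90 and 5.48. Length, GC and depth move together here, and with a smooth trend on GC removed 442 genes were lower and 91 higher, with a trend on exon length removed 533 and 201.

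**Figure D4:**
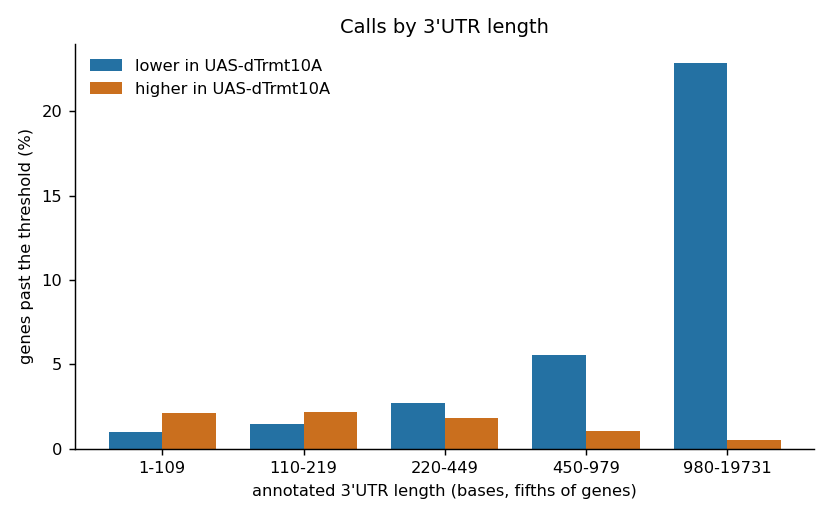
Share of genes (y axis, %) with lower (blue) and higher (orange) IP/input in UAS-*dTrmt10A* heads, in 5 bins of genes by annotated 3′UTR length (x axis, bases). The lower share is 22.8% in the bin of 980 to 19731 bases and 0.978% in the bin of 1 to 109 bases.

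The study listed transcripts with *dTrmt10A*-dependent m6A and with basal m6A sites by UTR. These lists were made from libraries of this series and chosen for a fall, so the counts here are a description and not independent evidence of direction. Of 971 tested genes on the dependent list, 344 were lower and 2 higher (35.4% lower, median −0.22). Of genes with such basal sites in the 5′UTR and none in the 3′UTR, 73 of 224 were lower (32.6%, median −0.22). With sites in the 3′UTR and none in the 5′UTR it was 134 of 272 (49.3%, median −0.29), and with sites in both it was 59 of 76 (77.6%, median −0.43). On none of these lists were 9365 tested genes, of which 324 were lower (3.46%), and these make up 48.1% of all lower genes.

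Heat-shocked heads of the same genotypes (30 minutes at 38.5 °C) share no library with the basal comparison. There, 555 genes were lower in UAS-*dTrmt10A* heads (5.3% of 10476 tested) and 751 higher (7.17%). The lower count was 1199 without UAS-*dTrmt10A* replicate 3, 356 without control replicate 1 and 286 without control replicate 2, and the higher count was 250, 279 and 170 without control replicates 1, 2 and 3. DESeq2's size factors gave 668 lower and 473 higher genes. Of the 673 basal lower genes tested after heat shock, 648 (96.3%) had a negative change, 315 (46.8%) were lower and 1 was higher, at a median of −0.26. Of the 152 basal higher genes, 150 (98.7%) had a positive change, 101 (66.4%) were higher and 0 lower, at a median of 0.36. Over all genes tested in both, 42.8% had a negative change after heat shock, at a median of 0.05. Basal and heat-shock changes correlated at Pearson r = 0.33 and Spearman rho = 0.46 across 10195 genes, which are not independent replicates.

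The genes with the largest basal changes can be followed one by one after heat shock. The change was −0.60 for *Unr*, −0.80 for *fne*, −0.55 for *para*, −0.63 for *Sh*, −0.53 for *Myc* and −1.06 for *CG6503*. It was 0.75 for 7SL RNA (*7SLRNA:CR32864*), 0.55 for *Tpi* and 0.67 for *Hakai*, whereas *Hsp70Bb* had 0.18 and did not pass (adjusted p = 0.11). The difference between the basal and the heat-shock change was tested itself. 0 of 10753 genes passed in either direction (0%, smallest adjusted p = 0.177), while 522 lower and 236 higher genes had an unadjusted p under 0.05, and without the filter on low counts 2 genes passed in each direction. The level slope after heat shock was 0.88, 0.90 and 1.04 in UAS-*dTrmt10A* samples, against 1.00, 0.95 and 1.02 in control samples (exact permutation p = 0.4, n = 3 each), and the genotypes overlapped.

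**Figure D5:**
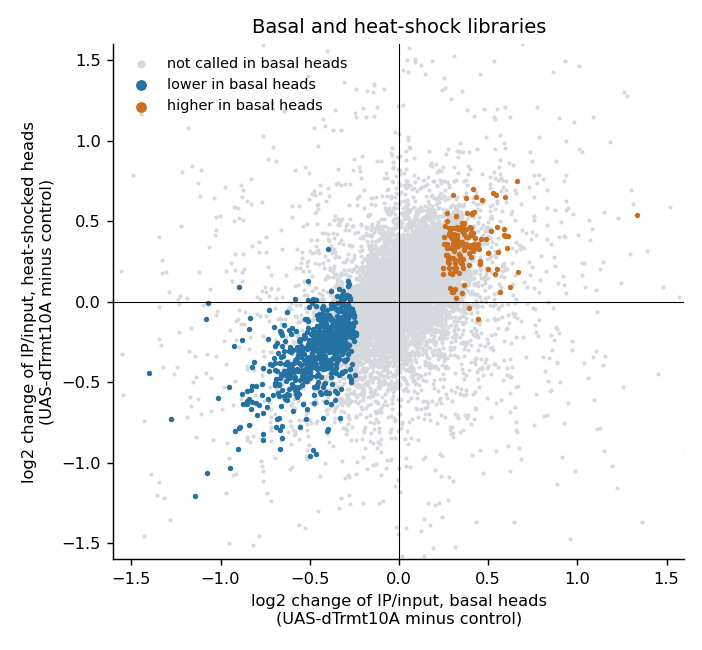
Log2 change of IP/input (UAS-*dTrmt10A* minus control) in basal heads (x axis) and heat-shocked heads (y axis) for 10137 genes, with 58 more outside the axes; genes called in basal heads are blue (lower) and orange (higher). Of the lower genes 648 of 673 have a negative heat-shock change, and of the higher genes 150 of 152 a positive one. Over all genes tested in both, 42.8% have a negative heat-shock change.

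Input RNA and cell-type markers were read for the same basal samples. In input, 184 genes were higher in UAS-*dTrmt10A* heads (1.8% of 10206 tested) and 103 lower (1.01%). Leaving out UAS-*dTrmt10A* replicate 3 gave 118 and 54, and leaving out control replicate 1, 2 or 3 gave 97, 63 and 110 higher and 53, 45 and 45 lower genes. In bulk heads, fewer cells of a type and less RNA per cell cannot be told apart. Of 7 neuron markers 5 were lower in IP/input (median −0.41, 3 to 5 with 1 RNA sample left out). Their summed input level was 4104 to 4323 CPM in UAS-*dTrmt10A* heads, against 4375 to 4542 CPM in control heads. The genotypes did not overlap on this scale of total counts. With TMM factors they overlap, as control replicate 1 (4419 CPM, factor 1.05) falls below UAS-*dTrmt10A* replicate 3 (4323 CPM, factor 1.02). Of 9 glia markers 0 passed, at 2308 to 2472 CPM in UAS-*dTrmt10A* heads, against 2463 to 2568 CPM in control heads. Of 7 photoreceptor markers 1 was lower, at 34180 to 38750 CPM in UAS-*dTrmt10A* heads, against 35966 to 38348 CPM in control heads. That gene was *ninaE*, the major rhodopsin, with log2 IP/input −0.04, −0.07 and −0.29 in UAS-*dTrmt10A* heads, against 0.26, 0.54 and 0.49 in control heads (change −0.56, adjusted p = 0.00115). Over the 7 markers the median change was 0.04, and 3 had a negative change. Of 29 phototransduction genes 5 were lower (17.2%, against 6.5% of all genes tested) and 0 higher. With total library size 3 were lower and 5 higher. Their median change was 0.07, and 11 of the 29 had a negative change. *inaE*, a diacylglycerol lipase of this list, fell by 0.67 on the log2 scale. Of 8 fat body markers 3 were higher (median 0.32), *Yp3*, *Lsp2* (0.32), a larval serum protein, and *FASN1* (0.32), a fatty acid synthase, none of which passed without UAS-*dTrmt10A* replicate 1 or 3, at 6514 to 9280 CPM in UAS-*dTrmt10A* heads, against 4906 to 7801 CPM in control heads. Of 10 muscle markers 0 passed, at 9724 to 12114 CPM in UAS-*dTrmt10A* heads, against 9233 to 11390 CPM in control heads. The part of these levels in the IP/input changes was not tested.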

How the data were processed

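The authors deposited a table of raw counts per gene for 17562 genes, made by trimming with Trim Galore, alignment to dm6 with STAR 2.7.3a and union-mode counting over FlyBase exons. The library kit was stranded, but strand, multi-mapped and duplicate reads in counting are not given in the sources used here, so copies and overlapping genes are uncertain. Symbols matched the Ensembl annotation of dm6 for 16847 genes, through older symbols for 648 and not for 67. Lengths of exons and UTRs are the union over a gene's transcripts.

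Counts were tested with edgeR 4.0.16 in R 4.3.3 (TMM, filterByExpr with a minimum count of 10 and a minimum total of 15, quasi-likelihood F-test, two-sided, Benjamini-Hochberg adjustment over all genes tested, threshold 0.05), with 1 term per RNA sample and an IP effect per genotype. Input RNA was tested between genotypes without a pairing. IP and input come from the same RNA, and the deviations of IP and input from their group means correlated at 0.16 to 0.40 within RNA samples, so they are paired. Log2 IP/input is the difference of log2 CPM with a prior count of 2. A count of 0 allows up to 3 counts, which is 0.0588 to 0.177 CPM of total counts per basal library, for counting error only. Alternatives were DESeq2 1.42.0, limma 3.58.1, other scalings, filters and trends (loess), and leaving out each RNA sample. Python 3.11.15 with pandas 2.3.3, scipy 1.17.1 and matplotlib 3.10.9 did the rest.

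The members, gene lists and tests were chosen with earlier results of these data known. Genes were named by rule: *CG14618*, genes the study's text names for UAS-*dTrmt10A*, the 10 largest changes per direction among genes that passed, whose genotypes did not overlap and whose log2 CPM averaged 3 or more, and up to 4 members per list with the smallest p. The *dTrmt10A* RNAi libraries served to rank genes by level and in the fit of all 30 libraries.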

Additional observations from a re-analysis of the deposited data

How the results depend on the processing

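Basal heads gave 674 lower and 152 higher genes. The lower count moved to 324 with total library size, 0 without the replicate block and with limma on the paired ratios, 1138 with a replicate block across genotypes, 442 with the GC trend removed and 361 at an adjusted p under 0.01. The higher count moved to 862 with total library size, 426 without a filter, 0 without the replicate block and with limma, 680 with the block across genotypes, 100 with DESeq2's Wald test, 91 with the GC trend removed, 480 with the level trend removed and 19 at an adjusted p under 0.01. Leaving out 1 RNA sample gave 331 to 1170 lower and 11 to 651 higher genes. Deviations of same-numbered samples of the 2 genotypes correlated at 0.10, 0.17 and −0.03 in IP and −0.04, 0.06 and −0.01 in input for replicates 1, 2 and 3, not above 0.1 in every pair, and the labels give no shared batch, so the numbers were not taken to pair the genotypes. The slope and SD of log2 IP/input were lowest in replicate 1 and highest in replicate 2 of both genotypes. Of 97 named genes that passed, 92 passed with total library size, 0 without the replicate block or with limma, 68 with the GC trend removed and 69 to 96 with 1 RNA sample left out.

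Heat-shocked heads gave 74 lower and 25 higher genes without the replicate block, 279 and 292 at an adjusted p under 0.01, and 473, 461 and 492 higher genes with DESeq2's size factors, total library size and 10 counts in every library, with ranges of 286 to 1199 lower and 170 to 518 higher genes when 1 RNA sample was left out. The difference of both changes gave 2 lower and 2 higher genes without a filter. Input RNA gave 59 lower and 112 higher genes with a replicate block across genotypes, 39 and 72 at an adjusted p under 0.01, and 45 to 115 lower and 63 to 201 higher genes when 1 RNA sample was left out. The cause of these moves was not tested.

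Some changes turned their sign, of which *mt:lrRNA* (−0.50) had passed the threshold and the others had not. The IP/input change of *CG14618* was −0.020 with DESeq2's size factors and with DESeq2's Wald test, −0.0063 without mitochondrial RNAs, −0.016 with 10 counts in every library, −0.0012 without the replicate block, −0.0029 with all 30 libraries, −0.052, −0.071 and −0.066 with the length, GC and level trends removed, and −0.088 to 0.091 with 1 RNA sample left out. *fl(2)d* turned to 0.025 and *Ythdc1* to 0.071 with the level trend removed, and *mt:lrRNA* to 0.042 with the GC trend removed. *Hsp70Ba* turned to 0.10 with total library size, 0.0019 without a filter, 0.046 with the block across genotypes and 0.040 with limma. With 1 RNA sample left out, *Hsp70Ba* ranged from −0.19 to 0.17, *Hsp70Bbb* from −0.027 to 0.34 and *Hsp70Bc* from −0.069 to 0.39.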
